A study of Mus musculus with 16 samples.

Results

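Keratin-associated protein genes (Krtap genes) were followed across RNA-seq libraries of mouse skin exposed to ultraviolet B (UVB). The members were all genes of the count table whose symbol starts with Krtap and that had at least 10 counts summed over the 16 libraries, which gave 52 of 53 such genes among 24421 genes in all. The gene left out was Krtap13, with 2 counts; the members just inside the limit were Krtap9-5 with 17 counts, Krtap31-2 with 18 and Krtap31-1 with 21. All mice were females of SKH-1, a hairless strain with a mutation in the Hr gene. Epidermis was taken after 2, 15 and 25 weeks from control mice, which received no agent, and from mice irradiated with UVB at 60 mJ/cm2 in 2 sessions per week. Whole skin of control mice and skin tumors of irradiated mice were taken at week 25. Each of these 8 groups had 2 libraries, which the titles number 0 and 1, and the labels give neither the age of the animals nor whether both libraries of a group are from different animals. P-values therefore measure the spread between these libraries, which may be technical.

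Keratin-associated proteins are small proteins made by the cells that build the hair shaft. They surround the bundles of hair keratin filaments in the cortex and cuticle and are cross-linked to them through cysteine, which gives the fibre its rigidity. The family is divided into high-sulfur and ultrahigh-sulfur members, rich in cysteine, and high glycine-tyrosine members. The genes are short, lie in a few tight clusters, and are transcribed late in shaft formation, in the growth phase of the hair cycle. In SKH-1 mice the coat is shed after the first hair cycle, and abnormal follicles remain in the skin.

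The 52 members were single-exon genes of 304 to 1891 exon bases and belonged to 25 subfamilies. In mm10 coordinates, 22 lay on chromosome 11 between 99550132 and 99993994, 22 on chromosome 16 between 88610709 and 89571183, 5 on chromosome 7 between 142174532 and 142304503 (the Krtap5 genes), and 3 on chromosome 10 between 77720586 and 77837251, inside the span of the gene Tspear. Because the members moved together in what follows, the bases just upstream of 4 of them are shown. Among members with a RefSeq window, Krtap8-1, Krtap3-2 and Krtap4-7 had the most counts of their codon class, as defined below. Krtap1-5 had the most counts of the rest. The sequences are the 120 bases before the start site on the minus strand, from RefSeq on GRCm38.p6, at chr16:89487953-89488072, chr11:99556854-99556973, chr11:99581017-99581136 and chr11:99644090-99644209 in the order of the lines. Capitals mark TATAAA, the TATA box core, on either strand; in Krtap1-5 the upstream capitals hold TTTATA, which is TATAAA on the other strand, overlapping a TATAAA.
Krtap8-1: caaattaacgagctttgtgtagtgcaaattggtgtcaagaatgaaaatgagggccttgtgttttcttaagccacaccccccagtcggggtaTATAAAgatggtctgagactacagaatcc
Krtap3-2: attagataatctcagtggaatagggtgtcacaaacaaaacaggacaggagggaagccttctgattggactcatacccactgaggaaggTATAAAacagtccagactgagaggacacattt
Krtap1-5: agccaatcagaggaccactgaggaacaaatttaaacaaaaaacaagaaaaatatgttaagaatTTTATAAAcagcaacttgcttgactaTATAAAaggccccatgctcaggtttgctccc
Krtap4-7: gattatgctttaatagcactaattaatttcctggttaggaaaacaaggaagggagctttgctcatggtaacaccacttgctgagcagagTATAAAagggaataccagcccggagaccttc
The TATAAA nearest to the start began 29 bases before it in Krtap8-1, 32 in Krtap3-2, and 31 in both Krtap1-5 and Krtap4-7. In the RefSeq windows from 250 bases before to 50 after the start, 47 of the 52 members were matched by symbol, and 44 of these starts equalled the gene's first base in the count table. TATAAA on either strand was present in 38 of the 47 (80.9%), against 13.6% of all 32851 windows. On the gene's own strand, starting 40 to 20 bases before the start, it was present in 28 (59.6%) against 1.99%. CTTTGA, the core bound by LEF/TCF factors, was in 14 (29.8%) against 16%, and TCGTAAA, a motif of HOXC13 and related factors, in 1 (2.13%) against 0.597%, both strands counted. Such a match is a description of the sequence only.

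From their coding sequences in GENCODE M21, 19 members were cysteine-rich (at least 30% cysteine codons), 14 were glycine-tyrosine-rich (at least 35% glycine and tyrosine codons together, with fewer cysteine codons than the first class), and 19 were neither. The cysteine-rich class held all Krtap4, Krtap5 and Krtap10 members among others. The glycine-tyrosine-rich class held all Krtap6 and Krtap19 members and Krtap8-1, among others. Krtap7-1, a high glycine-tyrosine protein by name, fell in neither class at these limits.

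**Figure D1:**
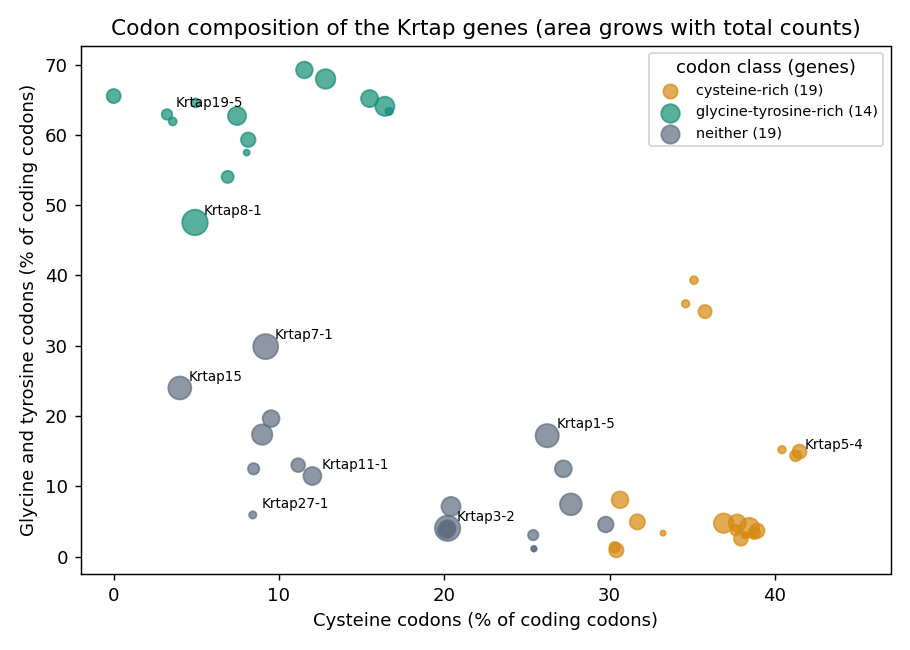
Share of cysteine codons (percent, x axis) against the share of glycine and tyrosine codons (percent, y axis) for the 52 members, 1 point per gene, coloured by class. The 19 cysteine-rich and the 14 glycine-tyrosine-rich genes are set by limits of 30% and 35% on these axes. The 19 others include Krtap2-4, just under the cysteine limit at 29.8%, and Krtap27-1, low on both axes (8.42% and 5.94%).

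Several members are near-identical to each other or to other annotated genes, so their counts are not independent. Of the 52, 37 shared at least one run of 50 bases with some other transcript in GENCODE M21, of which 31 did so with another member and 6 only with other genes. For runs of 100 bases, 22 shared one with some other transcript, 14 of them with another member. The share was largest in Krtap4-13, where 81.3% of its 50-base runs occurred in another transcript, foremost the predicted gene Gm11554, and in Krtap5-1, with 60.6%, foremost with the predicted gene Gm4559. Krtap4-13 also overlaps Gm11554 in the genome, and Krtap24-1 lies opposite the antisense RNA Gm49688. How reads with several possible origins were counted is not given in the sources used here, so values of such members are uncertain. The 15 members that shared no 50-base run with any other transcript are therefore given separately below. The counted reads had duplicates removed, which caps short abundant genes: 11 members reached at least 1 count per base in some library, with a maximum of 1.58 in Krtap8-1. Their folds can be understated, and they can stand too high in the shallower library of a group.

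Totals were 2905165 counts in the shallowest library (control week 2, library 1) and 4854612 to 7959503 in the others. Levels are CPM, each gene's counts scaled to a fixed library total, with TMM sizes (edgeR's trimmed mean method) over all 16 libraries. Tests are edgeR's quasi-likelihood F test, adjusted by Benjamini-Hochberg over the whole table of tested genes. The threshold for a call was an adjusted p of 0.05. Interfollicular keratinocyte markers (11 genes, among them Krt14 and Krt10) summed to 4944 to 7222 CPM in the epidermis libraries. Dermal fibroblast markers (10 genes) summed to 18.6 to 82.1 CPM there, apart from 205 in UVB week 25 library 0. In whole skin and tumor these fibroblast markers summed to 692 to 1862 CPM and 10 skeletal muscle markers to 2573 to 5355, against 22.4 to 104 for muscle in epidermis. Whole skin and tumor libraries thus held RNA of dermis and muscle that epidermis libraries held little of.

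Summed over the 52 members, Krtap RNA was highest in control epidermis at week 2, at 4869 and 4533 CPM in libraries 0 and 1. UVB epidermis at week 2 held 344 and 53.7 CPM. At week 15 the sums were 2395 and 1430 CPM in controls and 178 and 395 with UVB. At week 25 they were 1787 and 679 CPM in controls and 384 and 113 with UVB. Every UVB epidermis library was below every control epidermis library, whatever the week. Whole skin held 182 and 58.1 CPM, and tumors 90.5 and 26.2 CPM, so that both tumors lay below the lowest control epidermis library by far and whole skin and tumor overlapped. The 15 members that share no 50-base run gave the same order, with 1676 and 1324 CPM in week 2 controls against 126 and 11.9 with UVB. In bulk RNA, fewer hair-forming cells and less Krtap RNA per cell cannot be told apart.

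**Figure D2:**
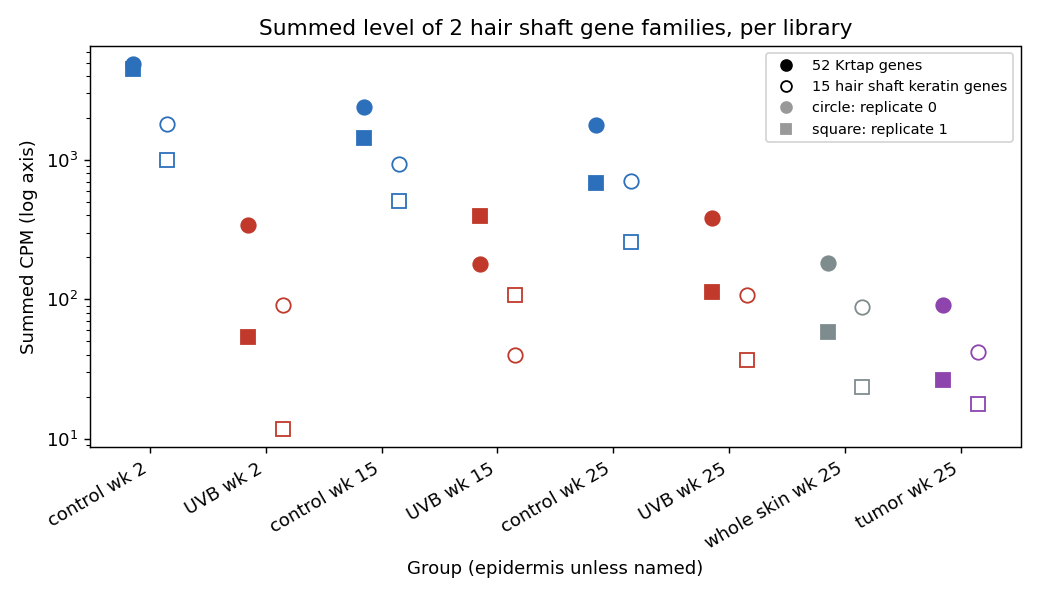
Summed level of the 52 Krtap members and of the 15 hair shaft keratins (CPM, log axis) in each of the 16 libraries by group; each point is 1 library. Krtap sums in UVB epidermis (53.7 to 395 CPM) lie below those in control epidermis (679 to 4869 CPM).

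**Figure D3:**
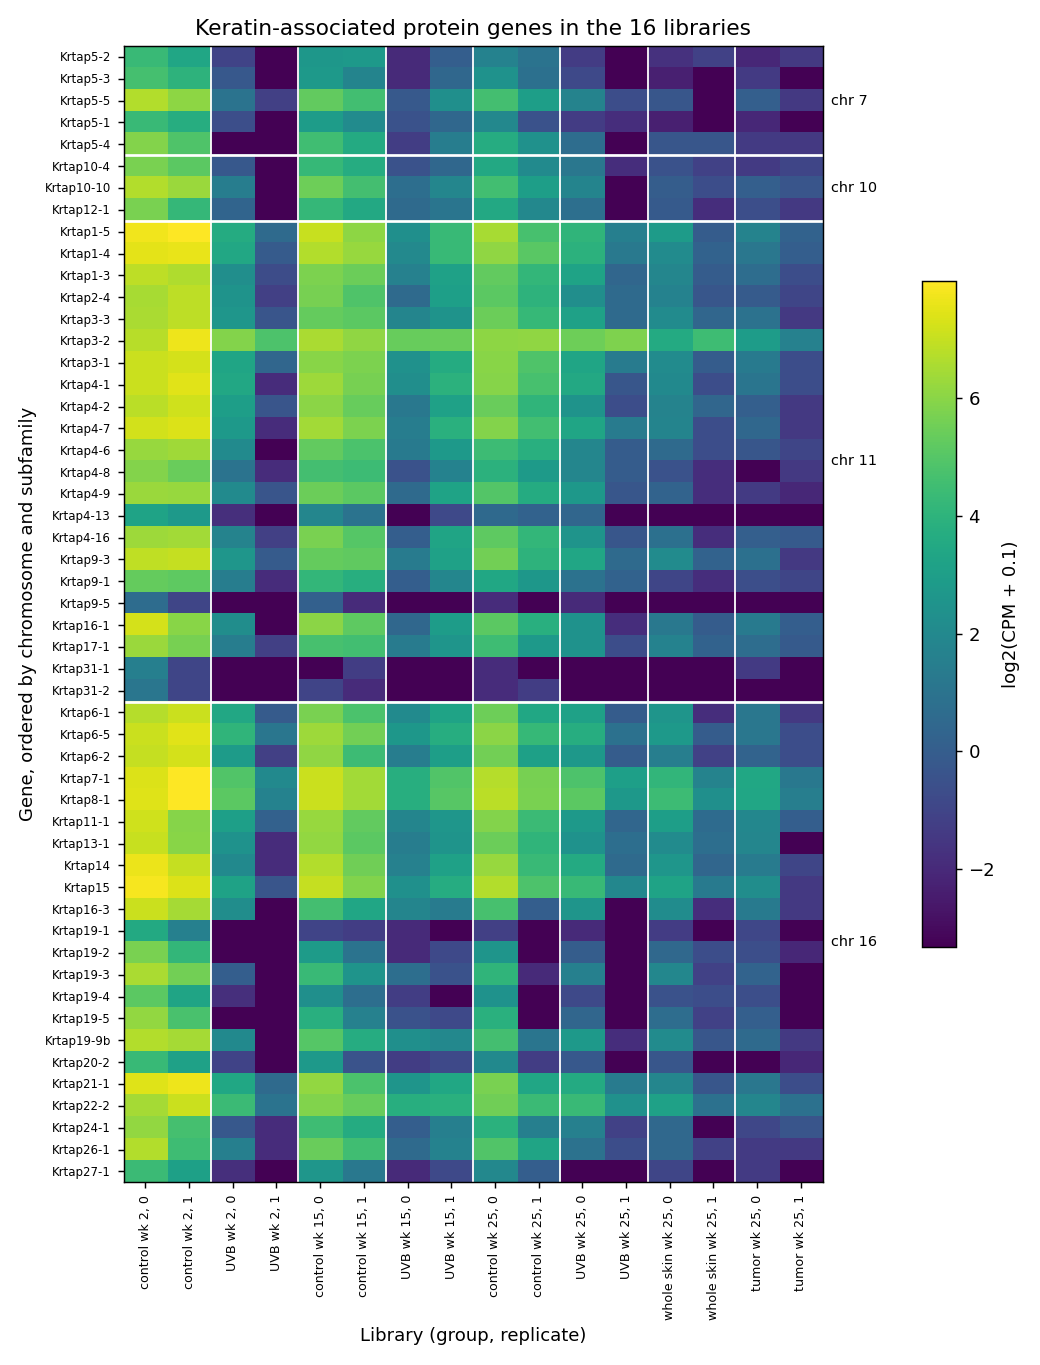
Level of each of the 52 members (rows) in each of the 16 libraries (columns), as log2(CPM + 0.1). Nearly the whole family is bright in the control epidermis columns and dark in the UVB, whole skin and tumor columns.

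Apart from control week 2, libraries of one group differed as a block. Across members with at least 20 counts in a group, library 1 was lower than library 0 in all 27 members of UVB week 2, by a median log2 of -3.46, and in 46 of 47 members of control week 25, by -1.54. In UVB week 25, 32 of 33 were lower in library 1 (median -2.66), and in UVB week 15 library 1 was the higher one in 34 of 36 (median 1.41). Control week 2 was the closest pair, with a median of -0.42, and its members split in direction, with 30 of 49 lower in library 1. Outside control week 2, members of a library thus moved together, and the members are not independent evidence of one another.

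The week 2 comparison asks what a short course of UVB does to the epidermis. Krtap RNA was lower with UVB in every member: in all 52, both UVB libraries were below both controls, a pattern found in 28.3% of all genes tested. Of the 49 members with enough counts to be tested, all 49 were called lower and none higher, against 9.74% of all genes called lower and 8.09% higher. At least 10 counts in both libraries were found for 48 members in week 2 controls and for 5 with UVB, so most members entered the test through the controls. The median log2 fold over the 49 was -5.43, with genes at 0 in UVB placed at their bound, and the median over all genes was -0.03. The smallest differences were those of Krtap3-2 at -1.87 and Krtap22-2 at -3.35. Dermal fibroblast markers also differed at this week, with a median log2 fold of -2.32 over 8 tested genes. Of these, 1 was called lower and 1 higher, beside the same shares of all genes. Their part in the Krtap result was not tested. Leaving out UVB library 1, the lower of the pair, left 5 members called.

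Among the most counted members, Krtap8-1, a glycine-tyrosine-rich protein of the shaft, measured 173 and 254 CPM in controls and 35 and 3.11 CPM with UVB. Its log2 fold was -3.54 ± 0.91 (SE; adjusted p = 0.0243, edgeR), the largest adjusted p among the members at this week. Krtap7-1, counted among the high glycine-tyrosine proteins, measured 169 and 249 CPM against 29.9 and 3.97. Both UVB libraries of each gene were below both controls, and library 0 was the higher UVB library. Krtap1-5, a high-sulfur member of the chromosome 11 cluster, measured 215 and 246 CPM in controls and 12.3 and 1.38 with UVB. Krtap15 measured 227 and 169 CPM against 9.07 and 0.691, and its neighbour Krtap14 201 and 125 CPM against 3.97 and 0.173. In all 3 the UVB libraries were the low ones, and library 1 the lower of the pair.

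The other members with the largest total counts fell as well. Log2 folds at week 2 were -5.09 for Krtap1-4, -4.10 for Krtap6-5, -5.56 for Krtap4-7, -4.89 for Krtap4-1, -5.04 for Krtap21-1 and -4.76 for Krtap3-1. All 6 passed the test, with standard errors of 0.77 to 1.08. They lie on chromosomes 11 and 16 and include all codon classes.

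The smallest p belonged to Krtap10-4, a cysteine-rich gene on chromosome 10, at 52.1 and 35 CPM in controls and 0.756 and 0 CPM with UVB. Its log2 fold was -6.86 ± 0.94 (SE; adjusted p = 0.00400, edgeR). Krtap5-5, the most counted of the ultrahigh-sulfur Krtap5 genes, stood at 103 and 66.1 CPM against 1.89 and 0.345 CPM (log2 fold -6.29). In both genes the 2 groups were far apart. Krtap4-8 had a log2 fold of -5.68 and Krtap9-1 one of -4.80, and Krtap5-2 was 93.4-fold lower with UVB, with a counting interval of 25.3 to 779, on 2 counts. Krtap5-4, Krtap19-5 and Krtap19-2 had no count in either UVB library. Set against a floor of 3 counts over the group, they were at least 186-fold, 213-fold and 155-fold lower, and Krtap19-1 at least 32.8-fold.

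The most counted members of the remaining subfamilies fell too at week 2. On chromosome 16, log2 folds were -5.21 for Krtap13-1, -4.52 for Krtap11-1, -5.43 for Krtap26-1, -6.70 for Krtap24-1, and -5.63 for Krtap19-9b. Krtap20-2 was 89.0-fold lower, with a counting interval of 24.1 to 743, on 2 counts, and Krtap27-1 188-fold lower, with an interval of 33.2 to 7490, on 1 count. On chromosome 11 they were -5.21 for Krtap2-4, -5.22 for Krtap9-3, -5.63 for Krtap16-1 and -5.50 for Krtap17-1. On chromosome 10, Krtap10-10 was at -6.16 and Krtap12-1 at -6.02. Every tested member of these subfamilies was called lower at this week.

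**Figure D4:**
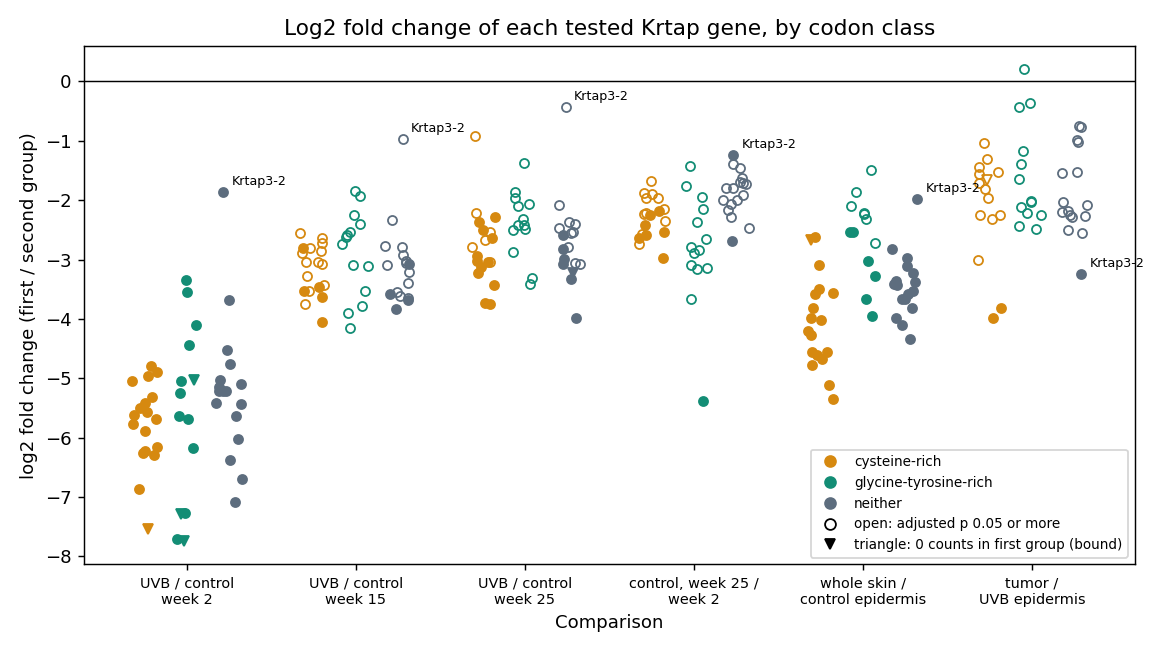
Log2 fold of each tested member (y axis) in 6 comparisons (x axis), 1 point per gene, coloured by codon class; filled points are called, open points have an adjusted p of 0.05 or more, triangles are bounds where the first group had no counts, and genes with both groups at or under 3 counts are left out. With UVB at weeks 2, 15 and 25 the points lie below 0, with Krtap3-2 nearest to 0; against UVB epidermis, tumors have 3 filled points.

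At week 15 the direction was the same and fewer members passed the test. Both UVB libraries were below both controls in 51 of 52 members, against 23.5% of all genes, and 9 of 49 were called lower and none higher, against 1.64% of all genes called lower and 1.85% higher. The called members were Krtap10-4 (log2 fold -4.05), Krtap26-1 (-3.84), Krtap13-1 (-3.69), Krtap4-8 (-3.62), Krtap11-1 (-3.58), Krtap5-2 (-3.53), Krtap5-5 (-3.47), Krtap3-3 (-3.08) and Krtap9-1 (-2.81). Their adjusted p-values ran from 0.0291 to 0.0493 (edgeR), so all lay near the threshold, and 46 of the 49 had an unadjusted p under 0.05. The median log2 fold over the 49 was -3.07. The smallest difference was that of Krtap3-2 at -0.97, and the highest ratio of control to UVB that of Krtap19-4, at 19.2 (counting interval 4.92 to 165, on 2 UVB counts). The count depended on single libraries: without control library 0, UVB library 0 or UVB library 1 no member was called, and without control library 1 there were 18.

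Single members show the pattern at week 15. Krtap8-1 stood at 134 and 85.6 CPM in controls and at 13.7 and 33.3 with UVB. Krtap1-5 stood at 130 and 66.1 CPM against 4.88 and 19.5, and Krtap15 at 127 and 57.5 against 5.04 and 12.7. In each the groups did not overlap, and UVB library 1 was the higher one. Krtap11-1, a shaft protein gene that lies alone in its subfamily, stood at 75.3 and 38.1 CPM against 3.46 and 6.09 CPM.

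At week 25, 19 of 49 members were called lower and none higher, against 10.9% of all genes called lower and 10.6% higher. Both UVB libraries were below both controls in 39 of 52, against 35.4% of all genes, a share closer to the background than at the earlier weeks. The median log2 fold over the 49 was -2.59. Krtap3-1, a high-sulfur gene, had the smallest p, with 62.1 and 29.5 CPM in controls against 10.1 and 2.48 with UVB and a log2 fold of -2.83 ± 0.72 (SE; adjusted p = 0.0211, edgeR). Krtap26-1 had a log2 fold of -3.98 and Krtap11-1 one of -3.32. Krtap27-1 had no UVB count and was at least 9.33-fold lower, and Krtap5-2 was 15.0-fold lower (counting interval 3.81 to 130). Without control library 0 or UVB library 1 no member was called at week 25; the count was 5 without UVB library 0 and 8 without control library 1.

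Several of the most counted members did not pass at week 25. Krtap8-1 measured 111 and 52.4 CPM in controls and 34.6 and 6.38 with UVB, with a log2 fold of -1.97 (adjusted p = 0.124, edgeR). Krtap7-1 measured 106 and 50.6 CPM against 28.5 and 8.15 (-2.07, adjusted p = 0.0706), and Krtap1-5 92.2 and 25.8 CPM against 16.8 and 2.84 (-2.55, adjusted p = 0.0673). In these the UVB libraries were still the lower ones. Krtap19-5 measured 14.3 and 0 CPM in controls and 1.22 and 0 with UVB, so its groups overlapped. The fibroblast marker sum was highest in UVB week 25 library 0 (205 CPM against 72.3 in library 1), which was the UVB library with more Krtap RNA. Both UVB libraries were above both controls of that week (19.99 and 19.2 CPM). Of 8 tested fibroblast markers 7 were called higher (median log2 fold 3.58), as were 5 of 9 immune cell markers. Their part in the result was not tested.

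Over the 3 weeks together, with week as an additive term, all 49 tested members were called lower with UVB, against 15.1% of all genes, and none higher, against 14.4%. The median log2 fold was -3.73, from -5.30 in Krtap27-1 to -1.09 in Krtap3-2. The smallest p values were those of Krtap26-1 (-4.40 ± 0.58 SE, adjusted p = 0.000415, edgeR), Krtap11-1 (-3.81), Krtap5-2 (-4.47), Krtap27-1 and Krtap13-1 (-3.96). In 36 of 52 members, all 6 UVB epidermis libraries were below all 6 controls, against 4.15% of all genes. This count did not rest on one library: between 48 and 51 members were called when each of the 12 was left out in turn.

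Krtap3-2, a high-sulfur gene of the chromosome 11 cluster, was singled out after its values were seen. It measured 109 and 205 CPM in controls and 59.7 and 28.7 with UVB at week 2. At week 15 it measured 93.3 and 68.3 CPM against 41.1 and 42.8, and at week 25 67.7 and 68.0 CPM against 45.1 and 55.3. The UVB libraries were below the controls of their week each time, by less than in other members. The log2 fold was -1.87 ± 0.35 (SE) at week 2 (adjusted p = 0.00828, edgeR; 0.0757 without UVB library 1). It was -0.97 at week 15 (adjusted p = 0.144) and -0.43 at week 25 (adjusted p = 0.390). Its share of all Krtap counts ran from 2.24% to 10.02% (median 4.21%) in the 6 control epidermis libraries and from 10.8% to 53.4% (median 20.2%) in the 6 UVB libraries, all above every control. The 2 extremes with UVB, 53.4% at week 2 and 49.1% at week 25, were the libraries with the lowest Krtap sums of the epidermis. A high share was not limited to UVB. In unexposed whole skin it was 6.47% in library 0 and 38.0% in library 1, the one with the lower Krtap sum. In tumors it was 8.28% and 11.5%. Of its runs of 100 bases, 25.1% occur in another member, and Krtap3-3, of which 36.7% do, measured 94.7 and 117 CPM in week 2 controls and 6.05 and 0.691 with UVB.

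**Figure D5:**
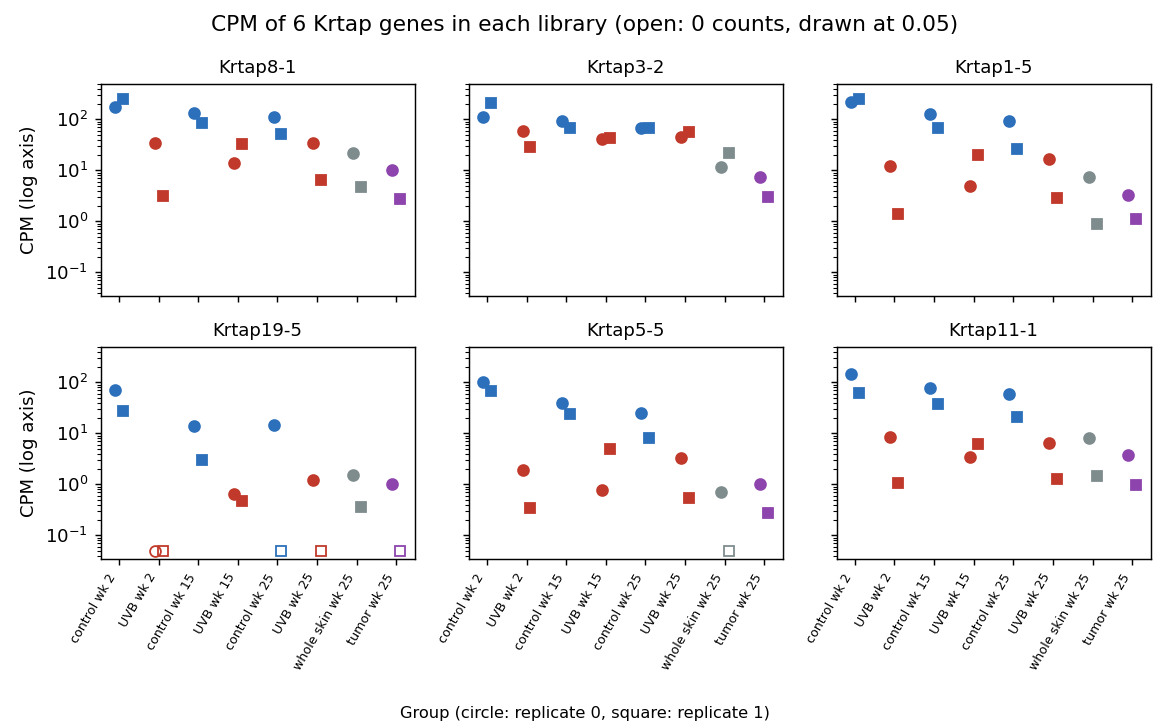
Level of 6 members (CPM, log axis) in each of the 16 libraries by group; circles are library 0, squares library 1, and open symbols have no counts and are drawn at 0.05. In epidermis Krtap3-2 runs from 28.7 to 205 CPM, whereas Krtap8-1 goes down to 3.11 CPM and Krtap19-5 has no count in either UVB library of week 2.

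Per kilobase of exon, the members were ordered as follows. In week 2 controls the highest mean levels were 369 CPM per kb for Krtap8-1, 337 for Krtap7-1, 294 for Krtap22-2, 256 for Krtap6-5, 253 for Krtap21-1 and 238 for Krtap3-1, neighbours within each other's spread between libraries. Each of these genes reached over 1 count per base in some library, from 1.17 in Krtap3-1 to 1.58 in Krtap8-1. Removal of duplicates caps such levels, so this order can be compressed. With UVB at week 2 Krtap3-2 had the highest mean, at 42.9 CPM per kb, ahead of Krtap8-1 (32.9), Krtap22-2 (29.9) and Krtap7-1 (27.2). This order came from library 1: in library 0 Krtap8-1 stood at 60.4 CPM per kb and Krtap3-2 at 57.9. At week 25 Krtap3-2 had the highest mean with UVB, at 48.7 CPM per kb, again through library 1, since in library 0 Krtap8-1 (59.8), Krtap22-2 (53.4) and Krtap7-1 (45.9) were above it (43.8).

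By codon class, at week 2, all 14 glycine-tyrosine-rich, 18 cysteine-rich and 17 other tested members were called lower, against 9.74% of all genes. At week 25, 12 of 18 cysteine-rich and 7 of 17 other members were called, against 10.9% of all genes called lower. None of 14 glycine-tyrosine-rich members was called, of which 9 had overlapping groups. A difference between the classes was not tested. Within the glycine-tyrosine-rich class are the 6 Krtap19 genes, of 58 to 141 codons. They summed to 367 and 192 CPM in week 2 controls and 5.10 and 0 CPM with UVB. At week 15 they summed to 78.9 and 25.4 CPM against 7.71 and 5.31, and at week 25 to 66.7 and 2.19 CPM against 12.4 and 0.177. The low week 25 control was library 1, and all 6 genes overlapped between the arms at that week.

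Members that share no 50-base run with any other transcript can be set beside those that do. At week 2, all 14 tested members of the first kind and all 35 of the second were called lower. At week 15 it was 3 of 14 and 6 of 35, and at week 25 5 of 14 and 14 of 35. Both kinds held called members at each week. The shares of all genes called lower at the 3 weeks were 9.74%, 1.64% and 10.9%.

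Krtap RNA also differed between weeks in unexposed epidermis. From week 2 to week 25 the sum went from 4869 and 4533 to 1787 and 679 CPM. Both week 25 libraries were below both week 2 libraries in 51 of 52 members, against 31% of all genes, and 10 of 49 were called lower and none higher, against 5.24% of all genes called lower and 8.47% higher. The called members were Krtap19-1, 54.2-fold lower at week 25 (counting interval 14.4 to 457), Krtap5-1 (log2 fold -2.98), Krtap27-1 (-2.69), Krtap5-2 (-2.64), Krtap5-3 (-2.58), Krtap10-4 (-2.54), Krtap5-5 (-2.42), Krtap4-8 (-2.24), Krtap9-1 (-2.19) and Krtap3-2 (-1.24). The median over the 49 was -2.19. Leaving out 1 library left 4 members called without week 2 library 0, 2 without week 2 library 1, 5 without week 25 library 0 and none without week 25 library 1. From week 2 to week 15, 47 of 52 members were lower without overlap, against 22.1% of all genes, and no member was called (edgeR; 13 with an unadjusted p under 0.05, 1 called by DESeq2), where 0% of all genes were called lower and 0.0223% higher, with a median log2 of -1.33 over the 49. From week 15 to week 25, 14 of 52 were lower without overlap, against 19.2% of all genes. None was called by edgeR or DESeq2, none had an unadjusted p under 0.05, and 0% of all genes were called lower or higher. Markers of other cells moved in the week 25 comparison with week 2: of 12 sebaceous gland markers 6 were called lower (median log2 fold -1.69, sums of 1145 and 3042 CPM at week 2 and 923 and 980 at week 25), and of 8 tested fibroblast markers 2 were (median -3.06). Their part in the Krtap result was not tested. The week 2 controls enter both the UVB comparison of that week and this one.

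Whether the UVB difference itself changed between weeks was tested as an interaction. From week 2 to week 25 no member was called by edgeR, where 3.33% of all genes were called higher and 4.59% lower, and the smallest adjusted p was 0.0774. The log2 differences of the 49 members were all above 0, 14 had an unadjusted p under 0.05, and DESeq2 called 5; edgeR called 3 without control week 25 library 0 and 1 without control week 2 library 0. For Krtap3-2 the difference was 1.43 ± 0.49 (SE; adjusted p = 0.0907, edgeR). From week 2 to week 15 no member was called by edgeR or DESeq2, 0% of all genes were called, and 5 members had an unadjusted p under 0.05. The smaller folds at the later weeks therefore did not pass as a difference from week 2.

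Whole skin of control mice held less Krtap RNA, in CPM, than control epidermis of the same week, and included dermis and muscle. Of 49 members, 41 were called lower and none higher, against 23.7% of all genes called lower and 31.9% higher. In 42 of 52 the groups did not overlap, against 34.4%. The median over the 49 was -3.50 on the log2 scale, where the median of all genes was 0.18. The smallest p values were those of Krtap9-1 (-4.61 ± 0.87 SE, adjusted p = 0.000652, edgeR), Krtap4-8 (-4.55), Krtap5-5 (-5.11), Krtap3-1 (-3.98) and Krtap3-2 (-1.99). Krtap8-1 went from 111 and 52.4 CPM to 21.4 and 4.81, and Krtap1-5 from 92.2 and 25.8 to 7.32 and 0.892. In both genes whole skin was below epidermis without overlap. Interfollicular keratinocyte markers also summed to less in whole skin (2398 and 3344 CPM) than in control epidermis at week 25 (5754 and 5534), by a smaller factor. Without control epidermis library 0, 20 members were called, and without whole skin library 1, 27.

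Tumors were compared with whole skin, the control collected with them. None of the 22 members tested was called by edgeR or DESeq2, where 0% of all 14661 genes were called, and 1 member had an unadjusted p under 0.05. The log2 folds of the 22 were all below 0, with a median of -1.10, from -1.73 in Krtap3-2 (5.25 ± 3.17 CPM in tumor against 17.0 ± 7.29 in whole skin, SD, n = 2) to -0.02 in Krtap16-1. Krtap8-1 stood at 10.3 and 2.73 CPM in tumors and 21.4 and 4.81 in whole skin. Its groups overlapped, as did those of 47 of 52 members. In 4 members both tumors were below both whole skin libraries, against 12.9% of all genes, and in 1 above. Only 4 members in tumors and 5 in whole skin had at least 10 counts in both libraries. The count depended on 1 library: 24 members were called lower without whole skin library 1, the one with less Krtap RNA, on a lone whole skin library assumed to vary like the tumors, and 1 without whole skin library 0.

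Against UVB epidermis of the same week, 3 of 49 members were called lower in tumors and none higher, against 12.7% of all genes called lower and 16.8% higher, so the members' share was below the background. Both tumors were below both UVB libraries in 13 of 52, against 37.6%. Krtap3-2 was the clearest, at 7.49 and 3 CPM in tumors against 45.1 and 55.3 (log2 fold -3.24 ± 0.48 SE, adjusted p = 0.000280, edgeR). Krtap4-8 was 16.5-fold lower (counting interval 4.17 to 143, adjusted p = 0.0345) and Krtap4-9 18.1-fold lower (5.82 to 91.0, adjusted p = 0.0457), on 2 and 3 counts. Tumors also held 1382 and 1862 CPM of fibroblast markers against 205 and 72.3 in UVB epidermis, and 3650 and 3515 CPM of muscle markers against 56.7 and 61.0. The part of this makeup in the result was not tested. The count was 1 without UVB library 0 or without either tumor library, and 5 without UVB library 1.

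Many other genes of the hair shaft moved with the Krtap genes. The hair shaft keratins, the filament proteins that Krtap proteins bind, were tested for 15 genes: 14 were called lower with UVB at week 2, 6 at week 15, 9 at week 25 and 14 over the weeks, and none higher. The shares of all genes called lower were 9.74%, 1.64%, 10.9% and 15.1%. Their median log2 fold at week 2 was -4.67. Krt84 went the other way at week 25, at 5.86 and 2.66 CPM in controls against 8.39 and 13.8 with UVB. For the UVB difference at week 25 against week 2, 1 of the 15 was called higher, against 3.33% of all genes. Krt39 had log2 folds of -5.97, -4.25 and -3.96 at the 3 weeks, and Krt85, made early in shaft formation, -4.48, -3.88 and -3.49, all called. Krt35 missed the test at week 2 (-3.85, adjusted p = 0.0514, edgeR). Its groups did not overlap there, at 22.2 and 8.42 CPM in controls against 2.27 and 0 with UVB.

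Genes of the inner root sheath, which surrounds the growing shaft, and of its companion layer fell in 12 of 13 cases at week 2 (4 at week 15, 5 at week 25), beside the same shares of all genes (9.74%, 1.64% and 10.9%), with Krt75 at -4.61 and Tchhl1 at -5.33. Krt6a, a keratin of the companion layer that wounded and irritated epidermis also makes, rose at week 25 (1.09) as at week 2. Of 13 other shaft proteins, 7 fell at week 2 against 9.74% of all genes. Among them were Padi3, which converts arginine in shaft proteins, from 386 and 214 CPM to 18.1 and 1.38 CPM, Crym (-4.16) and Padi1 (-2.84). Tgm3, a transglutaminase, was called higher. At week 15, 4 of the 13 were called lower and 0 higher, against 1.64% and 1.85% of all genes. At week 25, 4 were called lower and 1 higher, against 10.9% and 10.6%. The median log2 folds of these 13 were -1.50, -0.82 and -0.63 at the 3 weeks. Melanocyte markers (6 genes), which include pigment genes used in the growing bulb, summed to 96.1 and 80.9 CPM in week 2 controls and 21.6 and 20.7 with UVB. Most of that sum was Mitf (76.2 and 67.8 CPM against 17.2 and 15.4), 2 of 5 tested genes were called lower, and the median log2 fold of the list was -2.18 at week 2 and 0.53 at week 15. Outer root sheath and bulge markers (11 genes) summed to 936 and 945 CPM with UVB at week 2, below both controls (967 and 1214). At week 15 they summed to 1040 and 1052 CPM with UVB, above both controls (997 and 1006). At week 25 they summed to 1166 in both UVB libraries, again above the controls (1104 and 891). Postn alone went from 102 and 169 CPM in controls to 256 and 253 with UVB at week 15. At week 25 it went from 107 and 65.0 to 316 and 314. Krt15 went down, from 146 and 186 to 108 and 103 CPM and from 220 and 171 to 152 and 134. The list's median log2 fold was -0.41, 0.01 and -0.04 at the 3 weeks. Of 10 tested genes, 1 was called higher (8.09% of all genes) and 1 lower (9.74%) at week 2. None was called at week 15, and 1 was higher at week 25 (10.6%).

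Regulators of shaft differentiation varied less. Of 18 tested of 20, 8 were called lower at week 2, against 9.74% of all genes, and 1 higher (Bmpr1a), against 8.09%. None was called at week 15, and 2 were lower at week 25, a share near the 10.9% of all genes. Hoxc13, a homeobox factor that switches on hair keratin and Krtap genes, measured 44.7 and 32.0 CPM in week 2 controls and 27.8 and 24.4 with UVB (log2 fold -0.60, adjusted p = 0.0882, edgeR). It was called at week 25 (-0.87 ± 0.23 SE, adjusted p = 0.0226) and over the weeks (-0.74, adjusted p = 0.00155). Foxn1, which drives keratinocytes of the shaft to differentiate, had log2 folds of -0.51, -0.22 and -0.49, none called. Shh, a signal made in the growing bulb, was detected in week 2 controls at 6.63 and 4.21 CPM and had no count in either UVB library of that week. Hr, the gene mutated in this strain, measured 434 and 510 CPM in controls and 454 and 478 CPM with UVB at week 2. At week 15 its groups overlapped, at 470 and 401 CPM in controls and 420 and 380 with UVB. At week 25 both UVB libraries (301 and 369 CPM) were below both controls (460 and 503).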

How the data were processed

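RNA was sequenced from 16 skin libraries of 8 groups with 2 libraries each. The authors deposited 1 table of read counts per gene, in whole numbers. Per the submitters' processing notes, the authors used HISAT2, Picard, featureCounts and DESeq2 on mm10, without versions; per the file headers, duplicates had been removed. The sources used here give no strand, read length, annotation release or handling of reads with several origins. Totals were 2905165 to 7959503 counts.

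The analysis used edgeR 4.0.16 and limma 3.58.1 in R 4.3.3, with DESeq2 1.42.0 as an alternative. After filterByExpr (at least 10 counts in a group's libraries, 15 in total) and TMM scaling, groups were compared by edgeR's quasi-likelihood F test, with Benjamini-Hochberg adjustment over the genes tested and a threshold of 0.05. The prior count was 0.125. Comparisons within epidermis used 12 libraries (13478 genes, 6 residual degrees of freedom), the mean over weeks the same with week added, tumor against whole skin 4 libraries (14661 genes, 2 degrees of freedom), and whole skin or tumor against epidermis all 16 (15126 genes). Log2 folds carry the standard error of the fit. Folds against a group at 0 use a floor of 3 counts over the group, and ratios on 1 to 3 counts a 95% interval that covers counting error only. The script was tested on simulated data. Members named are the 12 with most counts, the most counted of each subfamily with at least 100 counts, up to 5 called members with the smallest p per comparison, and those at the count limit; the text says where a gene was picked after seeing its values. Members and lists were chosen with earlier results of these data known. Alternatives were DESeq2, other size factors, no filter, a replicate block, other sets of libraries, and each library left out. Promoters are from RefSeq (GRCm38.p6), and coding sequences from GENCODE M21.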

Additional observations from a re-analysis of the deposited data

How the results depend on the processing

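Each library was left out in turn, and DESeq2, RLE size factors, no filter, a replicate block and other sets of libraries were tried. No member was called higher in any of these, apart from the interaction of UVB with week. Of 126 counts of calls under alternatives other than leaving out a library, 111 stayed within 1.5 times the value above. Calls higher and calls lower were counted separately there, so the 111 include many counts that were 0 both times and say little of stability. The 9 members called lower at week 15 became 44 with no filter, 15 with a replicate block, 3 with all 16 libraries in the fit and 38 with the 4 libraries of that week alone. The 19 at week 25 became 39 with no filter and 12 with all 16 libraries. The 3 of tumor against UVB epidermis became 12 with no filter and 12 with only the 4 libraries. Control week 25 against week 2 went from 10 to 47 with no filter, 21 with a replicate block and 4 with all 16 libraries, and control week 15 against week 2 from 0 to 1 with DESeq2 and 7 with no filter. The interaction of week 25 with week 2 went from 0 called higher to 5 with DESeq2 and 13 with no filter. The causes were not tested.

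Leaving out 1 library gave 5 to 49 members called lower at week 2, 0 to 18 at week 15, 0 to 8 at week 25, 48 to 51 over the weeks, 0 to 24 for tumor against whole skin, 20 to 43 for whole skin against epidermis, 1 to 5 for tumor against UVB epidermis, 0 to 1 for control week 15 against week 2 and 0 to 5 for control week 25 against week 2. For the interaction of week 25 with week 2 it gave 0 to 3 called higher. Where this left a group with 1 library, that library was assumed to vary like the other groups. Of results for single members, 64 of 456 fell short of the threshold when a library was left out and 9 of 447 under the other alternatives; none reversed. Over 13478 genes, deviations of libraries with the same number had correlations of -0.117, -0.0328, 0.239 (week 25 epidermis) and -0.114 between control and UVB groups. Among the members, library 1 had the lower level by median in every group but UVB week 15. The labels do not say what the library number stands for, so the counts with a replicate block are given for completeness. In UVB week 2, whole skin and tumor, 4 or 5 members reached 10 counts in both libraries, so levels of single members there rest on few counts.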
